A study of Mus musculus with 12 samples.

Results

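The Toll-like receptors other than TLR4 were described here through 10 genes, taken as the rows of the expression table whose symbol was that of a receptor (Tlr1, Tlr2, Tlr3, Tlr6, Tlr7, Tlr8, Tlr9 or Tlr13) or of a chaperone that serves them (Unc93b1 or Cnpy3). All 10 symbols were found, 10 of 53801 gene records. RNA-seq had been carried out on RAW264.7, a macrophage-like line from a mouse tumour induced by Abelson leukemia virus, used at passages 3 to 5 per the labels. Cells carried either a control siRNA (control cells) or an siRNA against Synbindin (silenced cells), the protein made from Trappc4. Lipopolysaccharide (LPS) was either withheld (0 h) or given at 100 ng/ml for 4 h before collection. Each of the 4 groups held 3 libraries, and all of them came from this same line.

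Toll-like receptors are membrane proteins that bind molecules of microbes and signal through the adaptors MyD88 or TRIF. TLR2 sits at the cell surface and pairs with TLR1 or TLR6 to bind bacterial lipoproteins. TLR3, TLR7, TLR8, TLR9 and TLR13 meet nucleic acids inside endosomes: double-stranded RNA for TLR3, single-stranded RNA or its breakdown products for TLR7 and TLR8, unmethylated CpG DNA for TLR9 and bacterial ribosomal RNA for TLR13. UNC93B1 carries the endosomal receptors out of the endoplasmic reticulum, and CNPY3 assists the chaperone gp96 (Hsp90b1) in folding most of the family. LPS itself is the ligand of TLR4, so the LPS comparisons below follow the transcripts of receptors that LPS does not bind directly.

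The genes are given here on build GRCm38 with their Ensembl identifiers, and all of them are protein-coding. Tlr2 (ENSMUSG00000027995) lies at chr3:83836272-83841767 on the minus strand. Tlr1 (ENSMUSG00000044827, chr5:64924679-64933563) and Tlr6 (ENSMUSG00000051498, chr5:64952031-64960097) are neighbours on the minus strand, 18.5 kb apart with 0 annotated genes between them. Tlr7 (ENSMUSG00000044583, chrX:167304929-167330558) and Tlr8 (ENSMUSG00000040522, chrX:167242696-167264329) are a second pair on the minus strand, 40.6 kb apart with 0 annotated genes between. Tlr3 (ENSMUSG00000031639) lies at chr8:45395665-45411080 on the minus strand and Tlr9 (ENSMUSG00000045322) at chr9:106222598-106226883 on the plus strand. Tlr13 (ENSMUSG00000033777) lies at chrX:106143204-106160493 on the plus strand. Of the chaperones, Unc93b1 (ENSMUSG00000036908) lies at chr19:3935186-3949340 on the plus strand and Cnpy3 (ENSMUSG00000023973) at chr17:46735705-46752214 on the minus strand. Tlr3 and Cnpy3 each overlap an annotated gene on the opposite strand, Gm45542 and Gm26904. The libraries kept strand per the labels, but the strand setting used in counting is not given in the sources used here, so reads of these overlaps cannot be assigned with certainty.

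Tlr1 and Tlr6 also share sequence, which is shown because it bears on how far their values can be told apart. Between the longest protein-coding transcripts of the 10 genes there are 45 pairs, and Tlr1 with Tlr6 was the 1 pair that shared any stretch of 50 nt. Shared 50-nt windows made up 15.3% of those of Tlr1 and 12.5% of those of Tlr6. Shared 100-nt windows made up 8.85% and 7.24%. The longest identical run was 229 nt, in a coding exon of each gene, at chr5:64925537-64925765 in Tlr1 and chr5:64953828-64954056 in Tlr6, whereas the longest run in any other pair was 17 nt. Tlr1 and Tlr6 shared 454 windows of 50 nt, more than the 229-nt run alone holds, so they also share other identical stretches. A fragment that falls wholly in the run or in such a stretch matches both genes. How such reads were treated is not given in the sources used here. The run reads, 5′ to 3′ on the minus strand:
Tlr1 and Tlr6: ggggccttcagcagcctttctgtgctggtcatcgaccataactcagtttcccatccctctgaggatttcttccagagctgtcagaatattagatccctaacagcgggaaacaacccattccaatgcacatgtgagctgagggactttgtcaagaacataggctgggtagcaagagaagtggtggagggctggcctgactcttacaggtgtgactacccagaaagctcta

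Promoter windows, the 250 bases before a RefSeq start on GRCm38.p6, were held for 8 of the 10 genes, in 10 windows because Tlr1 and Tlr6 each have a pair of starts. None was held for Tlr7 and Unc93b1. The windows were searched on both strands for 4 patterns: GGGA and TTCC set 2 bases apart for NF-kB, GAAA and GAAA set 2 bases apart for the interferon-stimulated response element (ISRE), TTC and GAA set 3 bases apart for the STAT-binding GAS element, and GAGGAAG for the macrophage factor PU.1. The same patterns were counted in 32851 RefSeq promoter windows of that length. The NF-kB pattern occurred in 1 of the 10 windows and in 1.21% of all promoters. That match, GGGAGTTTCC, began 211 bases before an internal start of Tlr3. Its window lies inside the annotated gene and overlaps annotated exons. The ISRE pattern occurred in 1 window and in 2.98% of all promoters, as overlapping matches that began 116 and 110 bases before an internal start of Tlr6, in a window that is intronic in the annotation. The GAS pattern occurred in 2 windows, of Tlr1 and Tlr8, and in 7.02% of all promoters. This Tlr1 window, of an internal start, also lies inside the annotated gene and overlaps annotated exons. The PU.1 pattern occurred in 3 windows and in 10.6% of all promoters, beginning 23, 112 and 83 bases before starts of Tlr1, Tlr9 and Tlr13. A match is a run of letters, not a bound site. The windows of Tlr2 and Cnpy3 and the other window of Tlr6 held no match of any pattern as written, and near matches were not counted. The Tlr2 window does hold GGGGAATTCC, which has G where the NF-kB pattern has its only A. How often such near matches occur in all promoters was not counted. The start used for Tlr2 lies inside its annotated gene, and 91 of the 250 bases of its window lie outside annotated exons. In the sequences below matches are in capitals and bases in annotated exons are left out. The windows printed are those with a match outside annotated exons, of 4 genes whose transcripts changed with LPS. They are Tlr1 (chr5:64933564-64933808, minus), Tlr6 (chr5:64959167-64959416, minus), Tlr9 (chr9:106222348-106222597, plus) and Tlr13 (chrX:106143025-106143203, plus), the first 3 of genes that rose and the last of a gene that fell:
Tlr1: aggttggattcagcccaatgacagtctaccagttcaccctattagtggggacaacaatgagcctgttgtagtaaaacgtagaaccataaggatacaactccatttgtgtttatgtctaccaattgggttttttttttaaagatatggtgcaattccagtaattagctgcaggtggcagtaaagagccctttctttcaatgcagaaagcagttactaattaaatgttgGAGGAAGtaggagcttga
Tlr6: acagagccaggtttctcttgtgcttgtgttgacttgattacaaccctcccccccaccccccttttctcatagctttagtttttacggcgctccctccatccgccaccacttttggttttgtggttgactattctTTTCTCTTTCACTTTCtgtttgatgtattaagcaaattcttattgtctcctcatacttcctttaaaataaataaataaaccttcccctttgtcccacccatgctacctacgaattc
Tlr9: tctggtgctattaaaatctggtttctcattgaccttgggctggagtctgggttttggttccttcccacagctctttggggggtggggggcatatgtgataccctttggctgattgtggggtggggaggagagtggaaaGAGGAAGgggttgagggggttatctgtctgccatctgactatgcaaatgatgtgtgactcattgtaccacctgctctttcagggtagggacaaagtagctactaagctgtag
Tlr13: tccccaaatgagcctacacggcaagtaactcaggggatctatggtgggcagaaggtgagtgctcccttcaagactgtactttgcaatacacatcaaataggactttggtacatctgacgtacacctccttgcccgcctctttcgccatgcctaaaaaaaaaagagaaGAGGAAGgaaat

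Levels are FPKM, in which fragments are scaled by transcript length and by library size, so they can be compared between genes. Depth was estimated from the low FPKM values and is rough, at 3.95 to 17.6 M (mega) fragments per library and 7.83 ± 3.86, 9.28 ± 2.70, 11.9 ± 1.55 and 15.2 ± 2.14 M (mean ± SD, n = 3) in control cells and silenced cells without LPS and in the same with LPS. The libraries held 11672 to 12351 genes at FPKM of at least 1. Trappc4, the targeted gene, had 14.1, 13.1 and 12.5 FPKM in control and 4.35, 7.17 and 6.15 in silenced cells without LPS, and 13.8, 15.7 and 9.45 against 5.86, 7.71 and 8.26 after LPS. Every silenced library lay below every control library of its time, and 44.5% and 56.1% of the level remained (2-sided exact permutation test, p = 0.1 for each, the smallest that 3 against 3 libraries allow). In limma over all tested genes Trappc4 itself was not called at either time (-1.07 ± 0.19, adjusted p = 0.0558, and -0.74 ± 0.19, adjusted p = 0.120). Of 10 macrophage markers, 7 were at FPKM of at least 1 in every library. Mertk (0 to 0.116), Mrc1 (0.0122 to 0.306) and Itgam (0.0498 to 38.7) were not. Summed levels of T and NK cell, neutrophil, fibroblast and epithelial markers stayed at or below 0.525 FPKM in every library.

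Tlr2 was the most abundant of the 10 transcripts in all 4 groups, and Unc93b1 came next. Without LPS, control cells held 94.0 ± 6.87 FPKM of Tlr2 and 83.3 ± 3.16 of Unc93b1 (mean ± SD, n = 3, as for all group means). They were followed by Tlr13 (22.1 ± 4.00), Tlr7 (20.8 ± 13.0) and Cnpy3 (16.8 ± 2.48), of which Tlr7 overlapped with the other two. Below them stood Tlr1 (5.49 ± 0.28), Tlr6 (3.38 ± 0.21), Tlr9 (3.16 ± 0.35) and Tlr3 (1.69 ± 0.26), of which Tlr6 and Tlr9 overlapped. Tlr8 was last. After LPS the order in control cells became Tlr2, Unc93b1, Tlr7, Tlr1, Tlr3, Cnpy3, Tlr6, Tlr9, Tlr13 and Tlr8. Neighbours from Tlr3 to Tlr13 overlapped in this order, while each of the first 4 stood apart from the next. In silenced cells the order was Tlr2, Unc93b1, Tlr7, Tlr13, Cnpy3, Tlr1, Tlr6, Tlr9, Tlr3 and Tlr8 without LPS and Tlr2, Unc93b1, Tlr7, Tlr1, Tlr3, Cnpy3, Tlr6, Tlr13, Tlr9 and Tlr8 with LPS. Tlr7 overlapped with Tlr13 and Cnpy3, and Tlr1 with Tlr6, in the former. In the latter Tlr7 overlapped with Tlr1, Cnpy3 with Tlr6 and Tlr13, and Tlr13 with Tlr9. Tlr13 thus moved from near the top of the order to near its end.

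**Figure D1:**
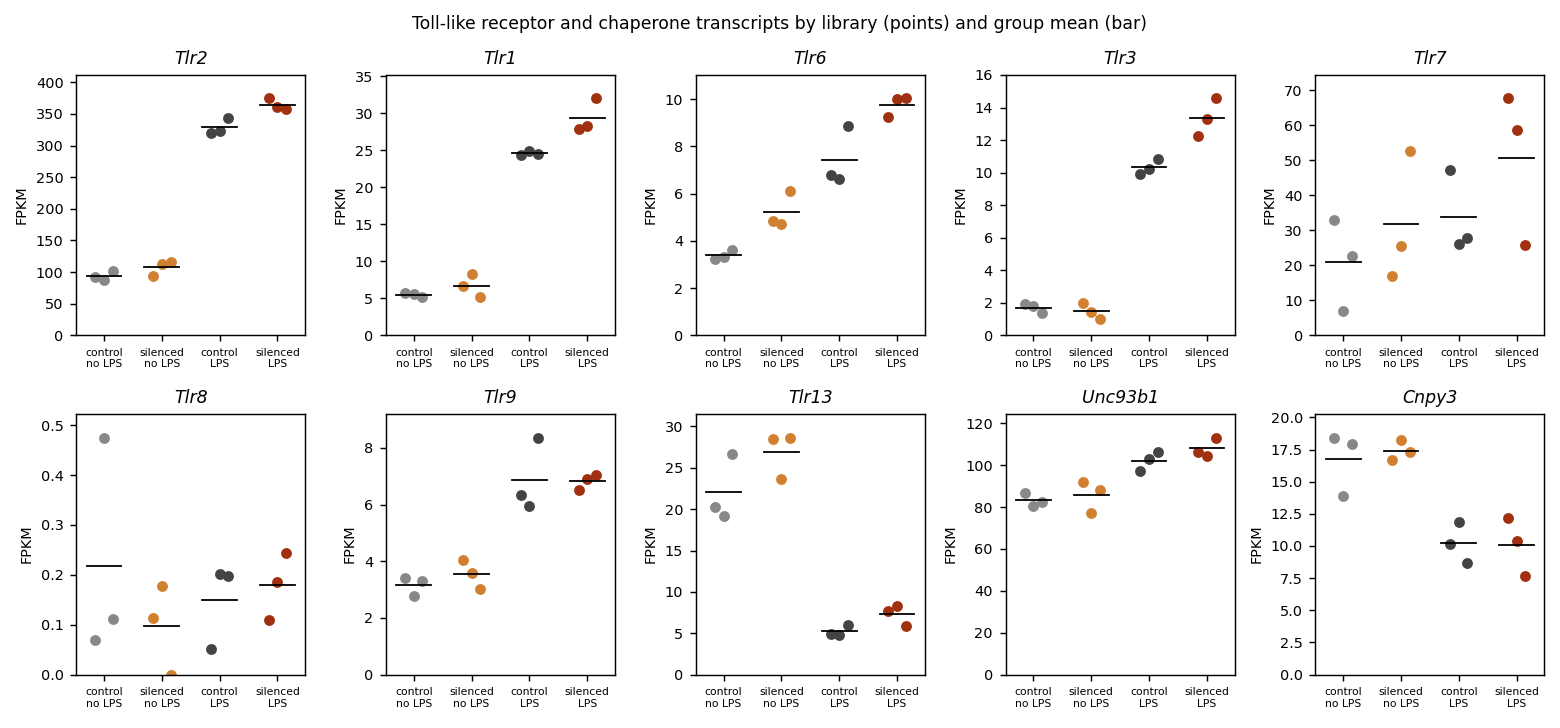
FPKM of the 10 transcripts in each of the 12 libraries (points) with the mean of each group of 3 (bar), each panel on its own axis from 0. Tlr1, Tlr2 and Tlr3 stand in separate ranges with and without LPS, Tlr13 lies between 19.2 and 28.7 FPKM without LPS and between 4.81 and 8.30 with it, and the points of Tlr7 are scattered in all groups.

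The question of the LPS comparisons was which receptor transcripts changed over 4 h of LPS. In control cells Tlr1, Tlr2, Tlr3, Tlr6, Tlr9 and Unc93b1 rose and Tlr13 and Cnpy3 fell, 6 higher and 2 lower of 9 genes tested. The tenth, Tlr8, was below FPKM of 1 in all 12 libraries and was not tested. The test was limma on log2(FPKM + 1), with Benjamini-Hochberg adjustment over all 13078 genes tested and a call at adjusted p under 0.05. Much of the transcriptome differed: 48.2% of tested genes were called in control cells, 15.3% higher and 32.9% lower. No library was collected at 4 h without LPS, so LPS cannot be told apart from the 4 h in culture. Changes with LPS in this text stand for both. In silenced cells the same 6 genes rose and the same 2 fell, against 48.5% of tested genes called, 13% higher and 35.5% lower. The median log2 fold change of the 9 genes was 0.91 in control and 0.79 in silenced cells, where the median over all tested genes was -0.17 and -0.21. In bulk RNA, fewer cells with a transcript and less of it per cell cannot be told apart. Estimated depth was higher in the LPS groups, and its part in these changes was examined only as a covariate, which ended 1 of the 8 calls in control cells (Unc93b1, below) and none in silenced cells.

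Of the surface receptors, all 3 rose with LPS. Tlr2, the common partner of this class, had 92.7, 87.9 and 101 FPKM in control cells without LPS and 320.0, 323 and 344 with it. In silenced cells it had 93.4, 113 and 116 FPKM without and 375, 361 and 357 with LPS. The LPS libraries thus stood well clear of the others in each case. The log2 fold change of Tlr2 was 1.80 ± 0.09 (SE, adjusted p = 4.15e-08) in control cells, a linear ratio of means of 3.50, and 1.76 ± 0.09 (adjusted p = 4.35e-08) in silenced cells, a ratio of 3.39.

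Tlr1, which joins TLR2 in the recognition of triacylated lipoproteins, was low before LPS and rose more than Tlr6. Control cells had 5.70, 5.59 and 5.17 FPKM without LPS and 24.3, 24.9 and 24.6 with it. Silenced cells had 6.70, 8.24 and 5.14 FPKM without LPS and 27.8, 28.2 and 32.0 with it. No library with LPS came near one without. Log2 fold changes were 1.98 ± 0.13 (adjusted p = 3.52e-07) in control and 2.0 ± 0.13 (adjusted p = 2.71e-07) in silenced cells, linear ratios of 4.48 and 4.39.

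Tlr6, whose pairing with TLR2 serves diacylated lipoproteins, rose by a smaller step. Its levels were 3.22, 3.30 and 3.63 FPKM without and 6.79, 6.64 and 8.87 with LPS in control cells. They were 4.84, 4.73 and 6.10 FPKM without and 9.26, 10.0 and 10.0 with LPS in silenced cells. LPS changed Tlr6 on the log2 scale by 0.94 ± 0.12 (adjusted p = 6.70e-05) in control and 0.80 ± 0.12 (adjusted p = 0.000202) in silenced cells, linear ratios of 2.20 and 1.87. The ratio of Tlr1 to Tlr6 FPKM within a library went from 1.63 ± 0.18 to 3.37 ± 0.52 in control cells and from 1.32 ± 0.45 to 3.01 ± 0.18 in silenced cells. Because the pair shares the run printed above and other identical stretches, each value may hold some reads of the other gene, and this share was not measured here. The 3 surface receptors summed to 103 ± 6.81 FPKM without and 361 ± 14.2 with LPS in control cells, most of it Tlr2.

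The endosomal receptors did not move one way. Of 5 genes, 4 were tested, Tlr3 and Tlr9 rose, Tlr13 fell and Tlr7 was not called. Tlr3, the receptor for double-stranded RNA that signals through TRIF alone, was the lowest of the tested transcripts without LPS. It had 1.89, 1.77 and 1.39 FPKM in control cells without LPS and 9.93, 10.2 and 10.8 with it. In silenced cells it had 2.01, 1.45 and 1.03 FPKM without and 12.3, 13.3 and 14.6 with LPS. Every library with LPS was far above every library without. The log2 fold change of Tlr3 was 2.08 ± 0.14 (adjusted p = 4.94e-07) in control cells and 2.54 ± 0.14 (adjusted p = 8.84e-08) in silenced cells. On the linear scale the means rose 6.13-fold and 8.97-fold, the highest ratios of the 9 genes. The log2(FPKM + 1) scale understates such changes from a low level.

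Tlr9, the receptor for CpG DNA, rose from 3.41, 2.76 and 3.30 FPKM to 6.34, 5.93 and 8.37 in control cells. In silenced cells it rose from 4.06, 3.57 and 3.02 to 6.53, 6.90 and 7.04 FPKM. Groups with and without LPS did not overlap. This was a log2 fold change of 0.91 ± 0.13 (adjusted p = 0.000144) in control and 0.79 ± 0.13 (adjusted p = 0.000398) in silenced cells, linear ratios of 2.18 and 1.92.

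Tlr13, the mouse receptor for bacterial ribosomal RNA, moved the other way and was the one receptor whose transcript fell. Control cells had 20.3, 19.2 and 26.6 FPKM without LPS and 4.85, 4.81 and 6.03 with it. Silenced cells had 28.5, 23.6 and 28.7 FPKM without LPS and 7.68, 8.30 and 5.87 with it. The lowest library without LPS was above the highest with LPS by more than 10 FPKM. The log2 fold change of Tlr13 was -1.88 ± 0.15 (adjusted p = 1.86e-06) in control cells and -1.76 ± 0.15 (adjusted p = 2.84e-06) in silenced cells. After LPS 0.237 of the control level and 0.271 of the silenced level remained.

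Tlr7 and Tlr8, the X-linked neighbours, gave no call for different reasons. Tlr7, a sensor of single-stranded RNA, had 32.9, 6.96 and 22.5 FPKM in control cells without LPS and 47.2, 26.0 and 27.8 with it. In silenced cells it had 16.9, 25.4 and 52.7 FPKM without and 67.7, 58.7 and 25.7 with LPS. The groups overlapped at each comparison. Its log2 fold change with LPS was 0.85 ± 0.56 in control cells (95% interval -0.36 to 2.07, adjusted p = 0.228) and 0.70 ± 0.56 in silenced cells (-0.51 to 1.92, adjusted p = 0.324). With the estimated depth as a covariate these values were 0.09 and -0.08. An increase of the size seen for Tlr1 lies within the first interval, so the data do not show that Tlr7 was steady. Tlr8 was near 0 throughout, with 0.0686, 0.475 and 0.110 FPKM in control and 0.113, 0.178 and 0 in silenced cells without LPS. After LPS it had 0.0507, 0.201 and 0.198 FPKM in control and 0.110, 0.186 and 0.244 in silenced cells. At the estimated depth these values stand for 0 to 15 fragments per library, too few to show a change.

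The chaperones differed in direction. Unc93b1 had 86.8, 80.6 and 82.5 FPKM in control cells without LPS and 97.1, 103 and 106 with it. In silenced cells it had 92.0, 77.3 and 88.0 FPKM without and 106, 105 and 113 with LPS. The groups were apart, but the step was small beside those of the receptors. The log2 fold change of Unc93b1 was 0.29 ± 0.08 (adjusted p = 0.00898) in control and 0.33 ± 0.08 (adjusted p = 0.00391) in silenced cells, linear ratios of 1.23 and 1.26. This call depended on how libraries were scaled. Quantile normalization ended it in each kind of cell (0.04, adjusted p = 0.750, and 0.12, adjusted p = 0.246), the depth covariate ended it in control cells (0.25, adjusted p = 0.0536), and median-ratio scaling raised the values to 0.52 and 0.61. Over 22 other settings the adjusted p of Unc93b1 ran from 0.000391 to 0.750 in control and from 0.000131 to 0.246 in silenced cells.

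Cnpy3, the folding factor, fell from 18.4, 13.9 and 17.9 FPKM to 10.1, 11.9 and 8.67 in control cells. In silenced cells it fell from 16.7, 18.2 and 17.3 to 12.2, 10.4 and 7.64 FPKM. Again no library with LPS overlapped one without. On the log2 scale Cnpy3 changed by -0.66 ± 0.16 (adjusted p = 0.00532) in control and -0.75 ± 0.16 (adjusted p = 0.00226) in silenced cells, and 0.611 and 0.578 of the level remained. With median-ratio scaling it was -0.44 and -0.49, still called. gp96 itself, made from Hsp90b1, stood at 243 ± 30.1 FPKM without and 253 ± 36.7 with LPS in control cells and at 294 ± 7.15 and 234 ± 23.8 in silenced cells. Dendritic cell markers summed to 0.655 to 2.11 FPKM without and 2.21 to 3.89 with LPS, and 0 of these 5 markers were at FPKM of at least 1 in every library. None of the 5 was at 0 in all libraries, and Xcr1 (up to 3.55) and Siglech (up to 1.92) were the highest. The sum of 4 B cell markers was 0 to 0.101 FPKM without LPS and 0.142 to 0.524 with it, with no overlap, and Cd79b and Ms4a1 were at 0 in every library. Their part in these results was not tested.

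**Figure D2:**
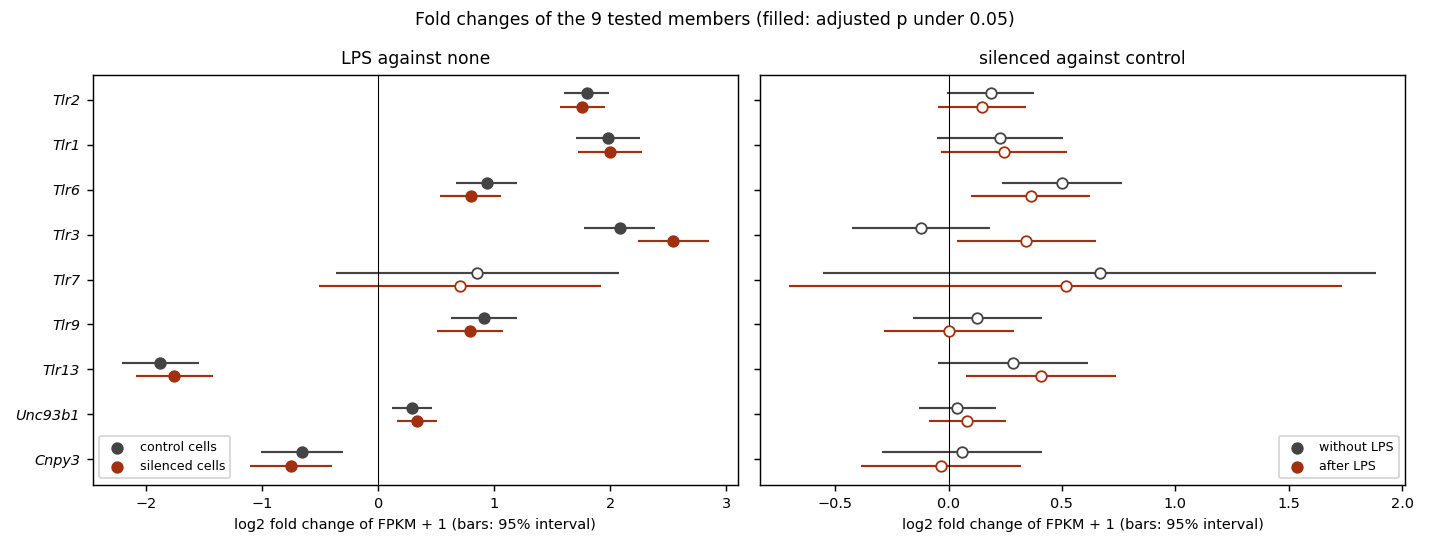
Log2 fold changes of FPKM + 1 for the 9 tested genes with 95% intervals, LPS against none on the left and silenced against control on the right (filled points, adjusted p under 0.05). On the left 8 genes are called in each kind of cell, from -1.88 (Tlr13) to 2.54 (Tlr3), and on the right none is called.

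The next question was whether silencing Synbindin changed these transcripts. Without LPS, 0 of the 9 tested genes were called, where 28 of all tested genes (0.214%) were called. Tlr6 had the smallest p-value. At 3.22, 3.30 and 3.63 FPKM in control and 4.84, 4.73 and 6.10 in silenced cells, it was the 1 gene of the 9 whose silenced libraries all stood above the control libraries, as those of 9.86% of tested genes did. Its log2 fold change was 0.50 ± 0.12 in limma (95% interval 0.24 to 0.76, adjusted p = 0.139), so it did not pass adjustment. The count of 1 was 3 without control replicate 3, without silenced replicate 2 or without silenced replicate 3, where 16%, 13.4% and 17.2% of tested genes met the same condition. It was 2 without silenced replicate 1, where 14.5% did. With a library fewer the condition is easier for any gene. At an unadjusted p under 0.05, 1 of the 9 genes and 12% of tested genes passed. The other 8 genes had fold changes from -0.12 (Tlr3) to 0.67 (Tlr7) and adjusted p-values of at least 0.440.

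After LPS, 0 of the 9 were again called, where 94 of all tested genes (0.719%) were. The silenced libraries of Tlr1, Tlr2, Tlr3 and Tlr6 all stood above the control libraries, 4 of 9 (44.4%) against 7.62% of tested genes. The lowest silenced and highest control libraries were close for Tlr6 (9.26 and 8.87 FPKM) and further apart for Tlr3 (12.3 and 10.8). Log2 fold changes with 95% intervals above 0 were seen for Tlr13 (0.41 ± 0.15, adjusted p = 0.274), Tlr6 (0.36 ± 0.12, adjusted p = 0.221) and Tlr3 (0.34 ± 0.14, adjusted p = 0.320), none past the threshold. Tlr1 stood at 0.24 ± 0.13 (adjusted p = 0.458) and Tlr2 at 0.15 ± 0.09 (adjusted p = 0.524). At an unadjusted p under 0.05, 3 of the 9 genes and 13% of tested genes passed. The count of 4 was 7 without control replicate 3, where 13.1% of tested genes met the condition. It was 3 after scaling to a common sum (5.38% of tested genes) and 5 with median-ratio scaling (9.7%).

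At each time 8 of the 9 fold changes were positive, with medians of 0.19 without and 0.24 with LPS where all tested genes had medians of 0.01 and -0.03. These 2 comparisons share no libraries, but they may not be independent. In each kind of cell, 6 of 6 libraries correlated best with the library of their own number across LPS. The list itself was not tested. Estimated depth was on average higher in silenced libraries at both times. The summed level of the 10 macrophage markers was also higher in silenced cells, at 2156 to 2614 against 1568 to 1686 FPKM without LPS and 2009 to 2740 against 1496 to 1885 FPKM with LPS, with no overlap at either time. This sum is unweighted and is set largely by its most abundant markers, among them Lyz2 (435 to 1344 FPKM over all libraries). It does not show how each of the 10 moved. With estimated depth as a covariate 8 of the 9 values were positive without LPS and 7 after LPS, and the medians were 0.14 and 0.14, where all tested genes had 0.01 and -0.02. The part of the marker level was not tested. For Unc93b1 (0.04 ± 0.08 and 0.08 ± 0.08), Cnpy3 (0.06 ± 0.16 and -0.03 ± 0.16) and Tlr9 (0.13 ± 0.13 and 0.00 ± 0.13) the values lay within about 1 SE of 0. The intervals for Tlr7 (-0.55 to 1.88 without LPS) were too wide to read.

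The interaction asked whether the response to LPS differed between silenced and control cells, and 0 of the 9 genes were called, as against 0.0612% of tested genes. Tlr3 had the smallest p-value. Its log2 fold change with LPS was larger in silenced cells by 0.46 ± 0.20 in limma (95% interval 0.03 to 0.90, adjusted p = 0.413), and its unadjusted p under 0.05 was shared by 11.3% of tested genes. The other differences lay between -0.15 (Tlr7) and 0.12 (Tlr13). The interaction shares its libraries with the comparisons above.

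How the variation of each transcript divided was computed from sums of squares on the log2(FPKM + 1) scale. LPS took 98.2% of the variation of Tlr2, 97.4% of Tlr3, 97.0% of Tlr1, 93.6% of Tlr13, 90.8% of Tlr9, 81.3% of Unc93b1 and 79.9% of Cnpy3. Tlr6 had the largest share for silencing, 18.7%, beside 75.5% for LPS. Tlr7 was unlike the rest, with 64.1% of its variation between libraries of one group. Its within-group SD was 0.80 on the log2 scale, and 1.64% of tested genes had a larger one. Among the 1386 genes within 0.5 log2 units of its mean level the median SD was 0.14 and 0.938% were above it. Its lowest library in control cells without LPS was replicate 2 (6.96 FPKM), and in silenced cells with LPS replicate 3 (25.7 FPKM), so no replicate number held the low values throughout. Tlr7 has 6 annotated transcripts of 261 to 3897 nt, 3 of them under 500 nt, and the deposited values are per gene. Any part of transcript choice in the spread was not tested. Tlr4, given only for comparison, had a still larger SD of 1.07, with 2.18, 3.15 and 19.1 FPKM in control cells without LPS. Unc93b1 was the steadiest of the 9 with an SD of 0.08, and 93.8% of tested genes varied more. Among the 346 genes within 0.5 log2 units of its mean level, 82.1% did.

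**Figure D3:**
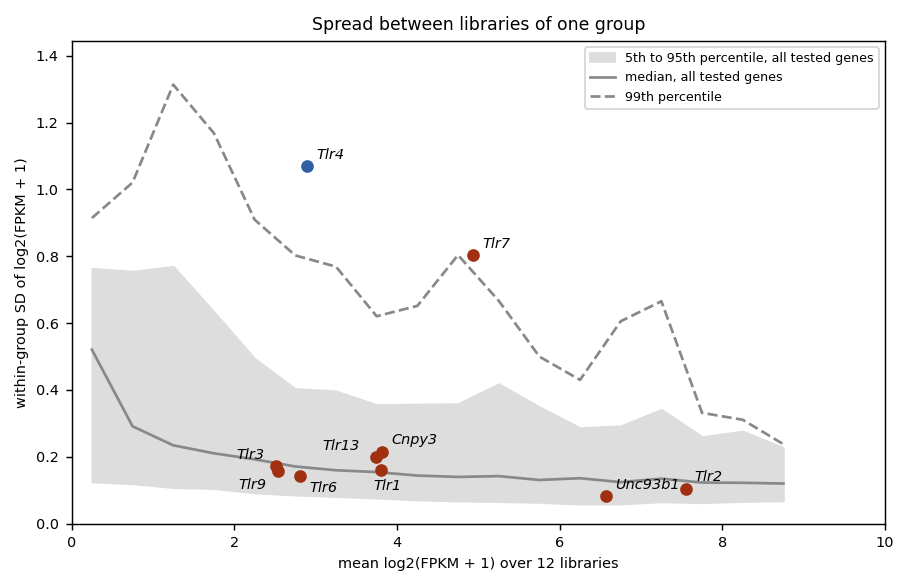
Within-group SD of log2(FPKM + 1) against mean level for the tested genes of the description and Tlr4 (points), over the median (line), the band from the 5th to the 95th percentile and the 99th percentile (dashed) of all tested genes. Tlr7 (0.80) and Tlr4 (1.07) lie at or above the dashed line, while the other 8 points lie inside the band.

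The remaining Toll-like receptors apart from Tlr4 were hardly present. Tlr5 reached at most 0.0392 FPKM and Tlr12 at most 0.0318 FPKM in any library, and Tlr11 was listed at 0 in all 12. Tlr4, the LPS receptor, was not called in any comparison.

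Other genes of the pathway, 63 in 7 lists that include Tlr4, gave 59 tested genes. With LPS in control cells 19 rose and 11 fell, 50.8% beside 48.2% of all tested genes, and in silenced cells 21 rose and 14 fell, 59.3% beside 48.5%. A share of calls this near to that of all genes says little about the lists, so the counts below are descriptions. Of 5 surface co-receptors 3 rose in control cells: Cd14, which hands ligands to TLR2 and TLR4 (log2 fold change 1.12), Cd180 (0.85) and its partner Ly86 (0.71). Of 16 tested adaptors and proximal kinases 6 rose and 4 fell. The largest change was that of Ikbke, a kinase that phosphorylates interferon regulatory factors, from 1.16 to 33.4 FPKM (3.97 ± 0.19, adjusted p = 3.15e-08). Myd88, the adaptor used by the receptors described here other than TLR3, went from 20.6 ± 2.53 to 50 ± 3.19 FPKM (1.25 ± 0.09), and Ticam1, which encodes TRIF, from 9.0 to 19.9 FPKM (1.06 ± 0.15).

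Of 5 interferon regulatory factors Irf1 (2.54) and Irf7 (1.90) rose in control cells, and the other 3 were not called. Of 7 inhibitors of signalling Trim30a (3.28) and the ubiquitin-editing enzyme gene Tnfaip3 (1.99) rose and Rnf216 (-0.67), which encodes a ubiquitin ligase, fell. Of 16 genes for receptor folding, transport and cleavage 4 rose and 4 fell, among them Lrrc59 (0.66), a binding partner of UNC93B1, and Arl8b (-0.56), a lysosomal GTPase. Of 9 genes that supply or degrade nucleic acids in endosomes 2 rose and 2 fell, with the exonuclease gene Pld4 at 0.45 and the transporter gene Slc15a4 at -0.74. The list medians ran from -0.07 for folding, transport and cleavage to 0.71 for co-receptors, where the 9 genes described above had 0.91.

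Silencing gave 0 calls among the 59 without LPS, where 0.214% of tested genes were called, and 3 (5.08%) after LPS, where 0.719% were. Cd36, a lipid scavenger receptor that assists TLR2 with TLR6, had 69.5, 57.9 and 60.6 FPKM in control and 101, 88.2 and 84.8 in silenced cells after LPS (0.54 ± 0.09, adjusted p = 0.0313). Pld4, an exonuclease that degrades nucleic acid ligands, had 34.7, 33.1 and 30.5 FPKM against 21.5, 20.4 and 20.2 (-0.64 ± 0.11, adjusted p = 0.0307). Dnase2a, the lysosomal deoxyribonuclease, had 27.7, 27.5 and 28.5 FPKM against 19.5, 20.1 and 20.2 (-0.47 ± 0.08, adjusted p = 0.0291). Groups did not overlap in any of the 3. These calls were near the threshold: Cd36 kept its call in 9, Dnase2a in 13 and Pld4 in 12 of 22 other settings. Leaving out any 1 of the 6 LPS libraries ended the calls of Cd36 (adjusted p = 0.0525 to 0.128) and Dnase2a (0.0506 to 0.109). Leaving out any of them but control replicate 3 ended that of Pld4 (0.0832 to 0.128). Cd36 was also lost without control replicate 2, silenced replicate 1 or silenced replicate 2 of the cells without LPS (adjusted p = 0.0502 to 0.0531), and Pld4 without control replicate 1 of these (adjusted p = 0.0505). In the interaction 0 of the 59 were called, beside 0.0612% of tested genes.

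**Figure D4:**
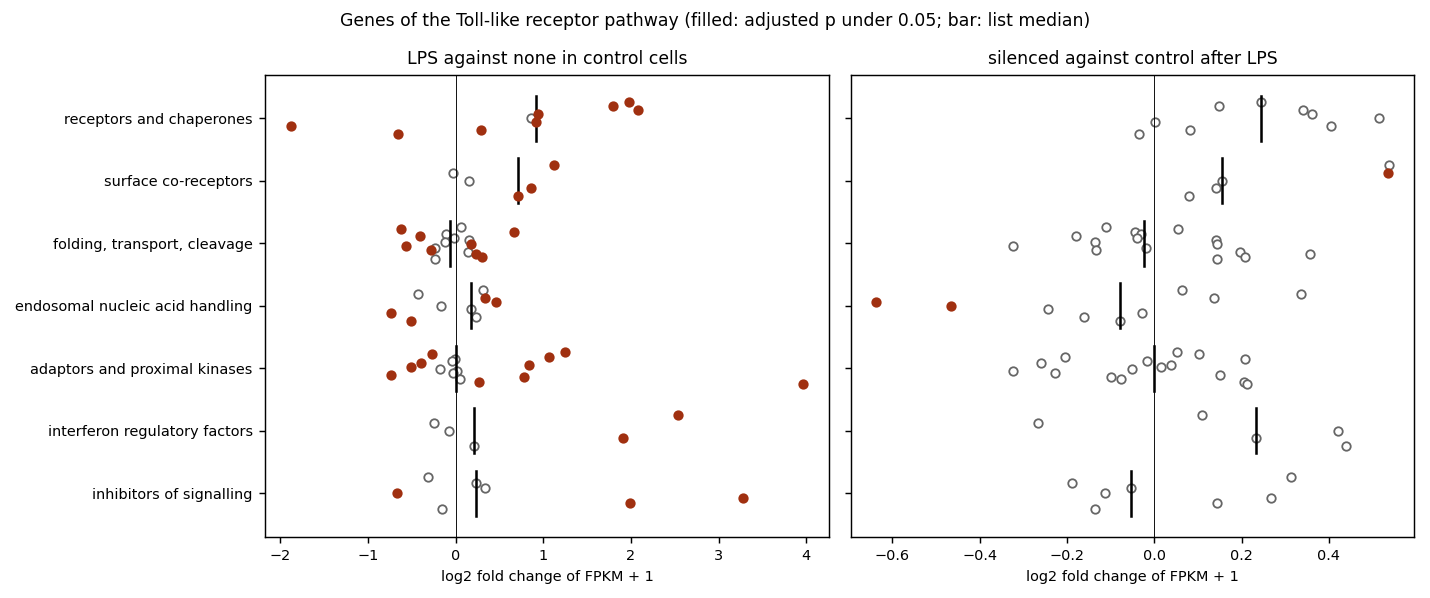
Log2 fold changes of FPKM + 1 for the 9 tested receptors and chaperones and the other pathway lists (filled points, adjusted p under 0.05, vertical bars, list medians), LPS against none in control cells on the left and silenced against control after LPS on the right, with different axis ranges. On the left called genes reach from -1.88 (Tlr13) to 3.97 (Ikbke), and on the right 3 points are filled, Cd36 at 0.54, Dnase2a at -0.47 and Pld4 at -0.64.

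The genes whose pattern was most like that of each member were sought over the 12 libraries, among 6619 tested genes with a mean FPKM of at least 5, by Pearson's r of log2(FPKM + 1). The libraries fall into sets with and without LPS, so these values are descriptions that mainly reflect that split. Nearest to Tlr2 were Rasgef1b (0.997) and Cd83 (0.996), to Tlr1 the chemokine gene Ccl3 (0.995) and Bcl2a1d (0.994), and to Tlr3 Tapbp (0.996) and Plaur (0.996). Tlr6 was nearest to Acot9 (0.985) and Srgn (0.975), and Tlr9 to Rhoc (0.985) and Igf2bp2 (0.983). Tlr13 had Hpgds and Lhfpl2 (0.990 each), Cnpy3 had Dsn1 (0.986) and Mbtps1 (0.979), and Unc93b1 had Bcl2l11 (0.953) and Tmem171 (0.95). The best values for Tlr7 were lower, 0.848 for the Fc receptor gene Fcgr2b and 0.830 for Nat2.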

How the data were processed

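RNA was sequenced from 12 libraries of RAW264.7 cells, 3 in each of 4 groups taken from the sample titles. The authors deposited the values as gene FPKM in 1 table of 53801 records. HISAT2, StringTie and build GRCm38 are named, without versions, per the submitters' processing notes. For the annotation release and the strand setting, the sources used here give nothing. Coordinates and transcripts came from GENCODE M21 for GRCm38, where 53620 records were found by ID. Promoter windows came from RefSeq on GRCm38.p6. The number of value columns that belong to no sample was 0.

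A count test cannot be run on FPKM. Tests used limma 3.58.1 (R 4.3.3) on log2(FPKM + 1), with a mean for each group, empirical Bayes with intensity trend and 8 residual degrees of freedom. Only the 13078 genes that reached FPKM of 1 in at least 3 libraries entered. In each of 5 comparisons the 2-sided p-values received Benjamini-Hochberg adjustment over these genes, with a call at under 0.05. The script was tested on simulated data. Depth was estimated from the step between low FPKM values of genes with 1 transcript. Because 3.54% to 10% of such values came within 1% of whole fragments, no reads were recovered and depths are rough. The labels do not say that replicates were separate cultures, so the p-values measure only the spread between these libraries, and that spread may be technical.

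The members, gene lists and tests were chosen with earlier results of these data known. The text names all 10 members, Trappc4, a few further genes by level, from each pathway list genes among the 4 called with the smallest p, and the 2 genes most correlated with each member. Varied settings were the pseudocount (0.1), the filter (none, or FPKM of at least 5), 3 other scalings, a replicate block, fitting the compared groups alone, no intensity trend, and leaving out each library. The depth covariate, and the settings for Trappc4 and for members with all silenced libraries above control, were chosen after seeing the data. Of the cell type markers, 1 gene is not reported here.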

Additional observations from a re-analysis of the deposited data

How the results depend on the processing

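In 22 other settings (21 for the interaction) the count of members called stayed at 0 for silencing at either time and for the interaction. It was 7 or 8 for LPS in control and in silenced cells, where the main count is 8, and 0 of the 16 called fold changes reversed. The exception in each was Unc93b1, whose lost calls are given above, with the cause not tested. The lists of all called genes were less steady. Leaving out each library gave 3 to 41 called genes for silencing without LPS (28 as reported), 10 to 91 for silencing after LPS (94) and 0 to 20 for the interaction (8). With only the libraries compared in the fit, silencing gave 6 genes without and 0 after LPS. Median-ratio scaling and quantile normalization moved the median of all genes in the LPS comparison by 0.19 and 0.12 in control and by 0.23 and 0.14 in silenced cells. The share of LPS calls that were higher went from 31.7% to 53.0% and 42.6% in control cells and from 26.8% to 51.3% and 40.2% in silenced cells. After LPS, the share of silencing calls that were higher went from 43.6% to 60.5% with median-ratio scaling and 73.7% with quantile normalization. The level of Trappc4 that remained was 39.7% to 50.3% without LPS and 49.3% to 62.7% after LPS over 9 other settings. Deviations of same-numbered libraries correlated at -0.027 to 0.189 over 12 pairs. The 3 correlations over 0.1 were all of replicate 3, so the numbers were not taken to pair the samples. As a hint from the data and not the design, 6 of 6 libraries correlated best with their own number in each LPS comparison, and 2 of 6 in each silencing comparison. Members whose silenced libraries all lay above the control libraries numbered 1 to 3 without LPS and 4 to 7 after LPS as libraries were left out, where 13.4% to 17.2% and 10.6% to 13.3% of tested genes met the condition. With the replicate number as a block, 0, 0, 8, 8 and 0 members were called in the 5 comparisons, and 48 genes in all for silencing without LPS. Depth limits Tlr8 most.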
